A study of Mus musculus with 22 samples.

Results

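Oligodendrocyte precursor cells (OPCs) are recognised by a small set of genes whose products lie on the cell surface or are secreted from it. The 6 genes examined here were chosen by name from the deposited count tables: Pdgfra, Cspg4, C1ql1, Lhfpl3, Cacng4 and Matn4, which are 6 of 16304 genes in the whole-cell table and 6 of 20668 genes in the nuclei table. Each was followed in every mouse of the study, in the OPC clusters and outside them, and compared between mice given FGF1 and mice given vehicle on Day 1 and Day 5.

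All 22 mice were male ob/ob animals of 11 weeks, an obese and diabetic strain that lacks leptin, and each received a single intracerebroventricular (icv) injection of 3 µg FGF1 or of PBS vehicle. The controls were pair-fed (PF), each getting as much food as FGF1 animals ate, so both groups share the genotype, sex, surgery and food amount. Nuclei from the hypothalamus were sequenced 24 h after injection (Day 1, 3 FGF1 and 3 vehicle mice) and on Day 5 (2 FGF1 and 2 vehicle mice), and dissociated whole cells from other mice on Day 5 (6 FGF1 and 6 vehicle mice), with 1 library per mouse. The mice used for nuclei (B6.Cg-Lepob/J, from Jackson Laboratories) and those used for whole cells (B6.V-Lepob/JRj, from Janvier Labs) were of different ob/ob lines and kept on different chows, and in the nuclei the authors counted intronic reads too, so levels are not compared between both kinds of library. All numbers below come from lines that carry the leptin mutation, and lean mice were not analysed here.

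OPCs are the dividing progenitors of the oligodendrocyte lineage and persist in the adult hypothalamus. On their way to myelinating cells they pass through the stage of committed oligodendrocyte precursors (COPs), in which genes of the precursor state are shut down and genes such as Gpr17 and Bmp4 are switched on. Pdgfra encodes the receptor tyrosine kinase for PDGF-A, the mitogen and survival factor of OPCs. Cspg4 encodes NG2, a chondroitin sulfate proteoglycan that spans the membrane and is also found on pericytes. Lhfpl3 encodes a small protein with several membrane spans, and Cacng4 an auxiliary subunit of AMPA-type glutamate receptors, by which OPCs receive synaptic input. C1ql1 encodes a secreted protein of the C1q family that binds the adhesion receptor Adgrb3, and Matn4 a matrilin, a secreted adaptor protein of the extracellular matrix.

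In the mouse genome (build GRCm38, GENCODE M21) the 6 are protein-coding genes on 4 chromosomes. Pdgfra spans chr5:75152292-75198215 on the plus strand and Lhfpl3 spans chr5:22746059-23275597 on the same strand. Cspg4 lies at chr9:56865033-56899870 on the plus strand. C1ql1 lies at chr11:102939264-102946688 and Cacng4 at chr11:107732357-107794557, both on the minus strand, and Matn4 at chr2:164389393-164405160, also on the minus strand. Exons of Pdgfra, Lhfpl3 and Matn4 overlap exons of a gene on the opposite strand (Gm42802 and Gm42803, A930003O13Rik, and Rbpjl), and whether the counting used strand is not given in the sources used here. If it did not, reads of these partners could not be told apart. Lhfpl3 also overlaps 6030443J06Rik and Gm21846 on its own strand. Their exons do not overlap its exons, but introns were counted in nuclei.

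The sequences just upstream of the transcription start are shown for the 3 members with a match to the letters searched, to let the matches be seen in their context. They are the 250 bases before the RefSeq start in GRCm38.p6, written 5′ to 3′ on the gene's own strand: chr5:75152001-75152250 for Pdgfra, chr5:22745804-22746053 for Lhfpl3 and chr2:164405161-164405410 on the minus strand for Matn4. The capitals mark the letters CANNTG (an E-box, the kind of letters that the oligodendrocyte lineage factor Olig2 can bind), read on both strands.
Pdgfra: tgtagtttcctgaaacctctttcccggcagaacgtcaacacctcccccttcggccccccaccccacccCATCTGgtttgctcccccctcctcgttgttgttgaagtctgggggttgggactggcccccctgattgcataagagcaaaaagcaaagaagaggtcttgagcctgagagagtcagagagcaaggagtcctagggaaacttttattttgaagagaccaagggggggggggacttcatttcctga
Lhfpl3: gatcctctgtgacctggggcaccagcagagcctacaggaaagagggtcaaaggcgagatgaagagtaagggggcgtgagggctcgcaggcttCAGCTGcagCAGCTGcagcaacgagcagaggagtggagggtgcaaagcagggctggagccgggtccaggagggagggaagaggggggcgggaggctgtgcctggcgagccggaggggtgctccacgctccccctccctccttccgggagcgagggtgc
Matn4: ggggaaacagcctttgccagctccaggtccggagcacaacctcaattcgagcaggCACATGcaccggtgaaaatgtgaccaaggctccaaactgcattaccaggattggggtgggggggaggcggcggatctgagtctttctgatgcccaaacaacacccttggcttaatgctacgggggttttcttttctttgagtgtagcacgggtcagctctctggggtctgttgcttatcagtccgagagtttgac
Pdgfra and Matn4 hold 1 such match each and Lhfpl3 holds 2. The window before a second RefSeq start of Matn4 (chr2:164404819-164405068, minus strand) has no match, nor has that of Cspg4, and C1ql1 and Cacng4 are named only. CANNTG occurs in 66.2% of the 32851 promoters in the table. The letters ACAATG (10.7% of promoters) and ACAAAG (16.5%), searched on both strands as words of SOX factors, occur in none of these windows.

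There were 54890 whole-cell barcodes in 20 clusters and 24965 nuclear barcodes with 37 cell type labels, with 2652897 to 16345981 UMIs per mouse. These are fewer whole cells and more nuclei than the paper reports. Of the whole cells, 4382 had over 20% mitochondrial or ribosomal UMIs, a limit above which the paper discarded cells. They were kept in the main tests, and 66 of them lie in the OPC and COP clusters named below. Some barcode sequences occurred in more than 1 library (1791 sequences in 3616 cells, and 318 sequences in 638 nuclei), and these were kept. Whole-cell clusters carry numbers only, and they were named here from marker genes. Clusters 5 and 17 met all 10 OPC markers and are called OPC-like, and cluster 9 met all 9 COP markers and is called COP-like. They held 3929 OPC-like cells (1481 from FGF1 mice, 97 to 423 per mouse, and 2448 from vehicle mice, 234 to 704 per mouse) and 1747 COP-like cells (1583 from FGF1 mice, 174 to 372 per mouse, and 164 from vehicle mice, 16 to 51 per mouse). For brevity these are written OPCs and COPs below.

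Levels are given in CPM, the UMIs of a gene scaled to 1000000 UMIs of the same cells. Over the 20 whole-cell clusters each of the 6 genes was highest in an OPC cluster, which is a description and was not tested because the clusters were made from the same counts. Summed over all mice, cluster 5 (3814 cells) held 1116 CPM of Pdgfra, 347 of Cspg4, 298 of C1ql1, 648 of Lhfpl3, 634 of Cacng4 and 198 of Matn4. The OPC clusters together carried from 59.7% (Cacng4) to 81.6% (Pdgfra) of all whole-cell UMIs of a member. The step from OPCs to COPs was not alike for the 6 genes. Pdgfra fell from 1116 to 9.12 CPM and Cspg4 from 347 to 17.2, to levels also seen in cells outside the lineage, whereas C1ql1 kept 43.3, Matn4 32.6, Cacng4 93.0 and Lhfpl3 138 CPM in cluster 9. For these last 4 genes the COPs were the highest named cluster outside the OPC clusters. They lay 6.90-fold (C1ql1), 6.08-fold (Matn4), 6.82-fold (Cacng4) and 4.70-fold (Lhfpl3) below cluster 5. These sums weight the COPs towards FGF1 mice, which gave 1583 of the 1747. With each mouse weighted alike, the step was 5.36-fold for C1ql1, 5.13-fold for Matn4, 5.02-fold for Lhfpl3 and 4.58-fold for Cacng4, whose mean of 136 CPM in COPs then lay above the 133 CPM of Lhfpl3. For Cacng4 the step was 7.43-fold in FGF1 mice and 3.41-fold in vehicle mice.

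**Figure D1:**
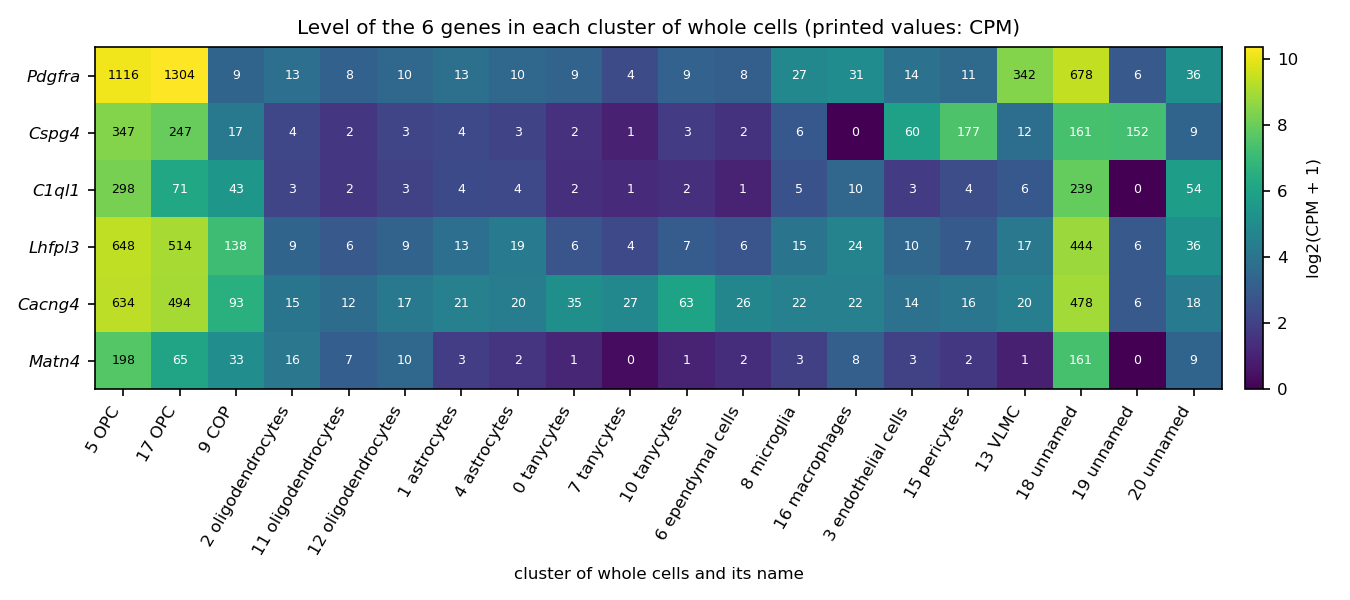
Level of each of the 6 genes (rows) in each of the 20 whole-cell clusters (columns, with their names from markers), in CPM summed over all 12 mice, on a log colour scale. The OPC cluster 5 and the unnamed cluster 18 are high for all 6 genes. The OPC cluster 17 is lower for C1ql1 (70.5 CPM) and Matn4 (65.5 CPM). Pdgfra is also high in the VLMC cluster and Cspg4 in the pericyte cluster.

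The 2 genes with the best known roles on the cell surface were shared with vascular cells. Vascular and leptomeningeal cells (VLMC, cluster 13, 752 cells) held 342 CPM of Pdgfra, so that cluster 5 was 3.26-fold higher, with the other members at 20.4 CPM or less. Pericytes (cluster 15, 359 cells) held 177 CPM of Cspg4, about 2.0-fold below cluster 5. The unnamed cluster 19 (95 cells) held 152 CPM and endothelial cells 59.8. Tanycytes carried some Cacng4 (62.6 CPM in cluster 10) and little of the rest. A further unnamed cluster, 18 (108 cells, 33 from FGF1 and 75 from vehicle mice), held all 6 genes, at 678 CPM of Pdgfra, 161 of Cspg4, 239 of C1ql1, 444 of Lhfpl3, 478 of Cacng4 and 161 of Matn4, each below cluster 5, beside markers of oligodendrocytes, and is left out of the OPCs below. Cluster 17 differed within the OPCs: its 115 cells, 104 of them from FGF1 mice and 11 from vehicle mice, held 1304 CPM of Pdgfra, but 70.5 of C1ql1 (14 UMIs) and 65.5 of Matn4 (13 UMIs).

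In single OPCs the genes were seen together only in part. When each cell was thinned to 1000 UMIs (2934 OPCs remained), a cell showed on average 2.27 of the 6 genes, 5.76% of cells showed none and 0.409% showed all of them. Thinned COPs showed 0.310 and microglia, which should lack these genes, 0.0548. Pdgfra was seen in 65.8% of thinned OPCs (95% exact binomial interval 64.1 to 67.6%, which like all such intervals here covers counting error only), C1ql1 in 23.9% (22.3 to 25.4%) and Matn4 in 16.3% (14.97 to 17.68%). In thinned microglia the share ranged from 0.135% (Matn4) to 1.56% (Pdgfra).

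C1ql1 was the member that changed in OPCs on Day 5. Its level was 163 to 244 CPM in the 6 FGF1 mice (median 198) and 264 to 376 CPM in the 6 vehicle mice (median 349), so every FGF1 mouse lay below every vehicle mouse. The means were 205 ± 31.0 and 331 ± 50.6 CPM (SD, n = 6 each), from 437 and 1121 UMIs. In edgeR's quasi-likelihood test on counts summed per mouse, C1ql1 fell by 0.69 ± 0.13 on the log2 scale (SE), to 0.618 of vehicle, with an edgeR FDR of 0.00068 over 5529 genes. This test called 179 genes (3.24%) at an FDR below 0.05, 85 of them lower after FGF1 (1.54%), and 0.832% of genes were lower after FGF1 with groups that did not overlap. The deposited metadata place 1 FGF1 and 1 vehicle mouse in each of 6 batches, and C1ql1 was lower after FGF1 in 6 of 6, by 0.14 to 1.12 on the log2 scale. In cluster 5 alone, without the cells of cluster 17, the log2 difference was -0.60 (edgeR FDR = 0.0072, with 2.39% of genes called). C1ql1 was the only member called, and 3 of the 6 had an unadjusted p under 0.05, as had 17.5% of all genes tested.

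The 4 members on the cell surface were not called in OPCs. Pdgfra was 1107 to 1402 CPM in FGF1 mice (median 1227) and 990.5 to 1227 CPM in vehicle mice (median 1070), and the groups overlapped. Its log2 difference of 0.17 ± 0.10 was not called (edgeR FDR = 0.42), and the interval of the ratio, from 0.976 to 1.29, does not reach down to the ratio seen for C1ql1. Lhfpl3 was 599 to 809 CPM (median 762) against 492 to 707 CPM (median 617), higher in 5 of 6 batches, with a log2 difference of 0.29 ± 0.11 (unadjusted p = 0.011, edgeR FDR = 0.13). Cspg4 was 253 to 334 CPM (median 305) against 303 to 422 CPM (median 359), lower in 5 of 6 batches, with a log2 difference of -0.31 ± 0.12 (edgeR FDR = 0.13, and 0.040 without vehicle mouse 35, which has the lowest level of its group). Cacng4 was 425 to 681 CPM (median 616) against 572 to 705 CPM (median 674), with a log2 difference of -0.19 ± 0.11 (edgeR FDR = 0.37). Of these 4, 2 were higher and 2 lower after FGF1.

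Matn4, the other secreted member, had SDs between mice of a group (73.9 and 131 CPM) about as large as the difference of the group means (133 against 215 CPM). It was 70.4 to 266 CPM in FGF1 mice (median 104) and 84.6 to 462 CPM in vehicle mice (median 176), with a log2 difference of -0.74 ± 0.46 (edgeR FDR = 0.47). Over the 6 members the median log2 difference was -0.25, against 0.000256 over all genes tested, with 4 of 6 members lower after FGF1.

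The share of OPCs with a UMI moved in the same directions. At 1000 UMIs per cell, C1ql1 was seen in 17.7 ± 3.82% of OPCs of FGF1 mice and 27.8 ± 3.73% of OPCs of vehicle mice (SD, n = 6 each), a difference of -10.2 points (exact permutation test, two-sided p = 0.0043, adjusted over the 6 members 0.026). Without thinning the values were 24.6 and 35.2% (exact p = 0.035, adjusted 0.21). Cspg4 was seen in 23.4 against 30.2% (exact adjusted p = 0.074) and Lhfpl3 in 52.0 against 45.5% (exact adjusted p = 0.074). Pdgfra (69.0 against 64.8%), Cacng4 (44.7 against 47.4%) and Matn4 (11.4 against 17.5%) had exact adjusted p-values of 0.14, 0.36 and 0.27. Thinned OPCs had median depths of 1428 UMIs in FGF1 and 1382 UMIs in vehicle mice before thinning, and the microglial share for C1ql1 was 0.338%.

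Markers of other cells were summed in the same OPCs. The 7 neuronal markers reached 1112 to 1392 CPM in FGF1 mice and 1510 to 1652 CPM in vehicle mice, and these ranges did not overlap, as for C1ql1. None of the 7 was at 0. The 12 other lists overlapped between the groups, among them 8 astrocyte markers (2465 to 3158 against 2726 to 3845 CPM), 10 oligodendrocyte markers (2368 to 3394 against 1886 to 4063) and the 10 OPC markers themselves, none of which is a member (4108 to 4711 against 4634 to 5381). The part of neuronal RNA in the C1ql1 result was not tested.

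The relatives and partners of the 6 genes formed a list of 33 genes, of which 17 passed the filter on low counts in OPCs. None of the 17 was called by edgeR, 7 had an unadjusted p under 0.05 (17.5% of all genes tested had), 9 were higher and 8 lower after FGF1, and their median log2 difference was 0.05. Among the PDGF genes Pdgfa, the ligand of Pdgfra, was 28.9 ± 13.3 against 40.2 ± 10.6 CPM (edgeR FDR = 0.25), while Pdgfrb was too low to test. The chondroitin sulfate proteoglycans did not share a direction. Bcan (brevican) was 632 ± 75.9 against 820 ± 169 CPM and Vcan (versican) 391.8 ± 92.1 against 518 ± 84.5 CPM, with log2 differences of -0.40 ± 0.12 (edgeR FDR = 0.056) and -0.41 ± 0.13 (edgeR FDR = 0.068). Ncan (neurocan) was 277 ± 43.7 against 205 ± 15.1 CPM, a log2 difference of 0.40 ± 0.12 (edgeR FDR = 0.059). Ptprz1, a receptor phosphatase with a proteoglycan form, differed by 0.31 ± 0.11 (edgeR FDR = 0.10), Cspg5 by 0.13 ± 0.10 and Tnr (tenascin-R), a matrix partner of these proteoglycans, by -0.37 ± 0.12 (edgeR FDR = 0.071).

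Of the C1q-like genes, C1ql2 was 51.8 ± 13.6 against 67.2 ± 10.3 CPM (log2 difference -0.39 ± 0.19, edgeR FDR = 0.26) and C1ql3 was 84.4 ± 22.1 against 73.8 ± 17.5 CPM (log2 difference 0.23 ± 0.18). Their receptor Adgrb3 was 114 ± 35.9 against 98.4 ± 22.2 CPM (log2 difference 0.16 ± 0.18). The AMPA receptor subunits Gria1, Gria2, Gria3 and Gria4 differed by -0.18, -0.10, 0.21 and 0.12 on the log2 scale with standard errors of 0.11 to 0.18, and Cacng7, a relative of Cacng4, by 0.05 ± 0.19. Lhfp and Lhfpl4, relatives of Lhfpl3, differed by 0.35 ± 0.26 and -0.04 ± 0.23. In COPs 12 genes of the list were tested, none was called by edgeR and none had an unadjusted p under 0.05 (12.5% of all genes tested had). DESeq2 called none of the list in OPCs either, and gave no adjusted p for Pdgfa and Lhfp.

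In COPs the member that changed was Cacng4. Its level was 61.4 to 113 CPM in FGF1 mice (median 76.8) and 34.4 to 409 CPM in vehicle mice (median 164). The means were 78.9 ± 18.7 and 194 ± 132 CPM (SD, n = 6 each), from 279 and 78 UMIs. One vehicle mouse, 29, lay below all FGF1 mice with 34.4 CPM, which is a single UMI in 16 cells, and the other 5 vehicle mice lay above all FGF1 mice. Cacng4 fell by 1.43 ± 0.28 on the log2 scale, to 0.372 of vehicle (edgeR FDR = 0.0063 over 4171 genes, of which 52 or 1.25% were called, 31 of them higher after FGF1 and 21 or 0.503% lower). Under DESeq2's size factors in edgeR 44 genes were called, 18 of them higher, and the log2 difference of Cacng4 was -1.49. The call was lost without vehicle mouse 22 (log2 difference -1.19, edgeR FDR = 0.076) and when cells were thinned (-1.39, edgeR FDR = 0.065), and it was lower after FGF1 in 5 of 6 batches. The share of COPs with a UMI of Cacng4 was 8.43 against 16.9% in thinned cells (exact permutation test, two-sided p = 0.26, adjusted over the 6 members 0.77) and 14.1 against 25.8% without thinning (exact p = 0.12, adjusted 0.73), so a difference in the share was not shown.

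The other members in COPs gave few UMIs. C1ql1 was 26.4 to 63.5 CPM against 0 to 117 CPM (141 and 25 UMIs), with a log2 difference of -0.78 ± 0.39 (edgeR FDR = 0.41). Lhfpl3 was 118 to 175 CPM against 68.9 to 190 CPM, with a log2 difference of 0.05 ± 0.23 (edgeR FDR = 0.99), whose interval allows ratios from 0.754 to 1.41. Pdgfra (31 and 4 UMIs), Cspg4 (55 and 11 UMIs) and Matn4 (105 and 20 UMIs) did not pass the filter on low counts and were not tested in the main fit. Without this filter 6 members were tested in COPs, and 1, Cacng4, was called. COPs of the 2 groups were not alike in stage markers: the 9 COP markers reached 15072 to 19181 CPM in FGF1 mice and 11761 to 13910 CPM in vehicle mice without overlap, the 10 oligodendrocyte markers 34321 to 41577 against 15425 to 44112 CPM, and the neuronal markers 263 to 749 against 342 to 1420 CPM. Their part in the Cacng4 result was not tested.

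The FGF1 effect on Cacng4 differed between both stages in the settings tried, which did not include thinned cells or leaving out a mouse. The call in COPs alone was lost when cells were thinned and without vehicle mouse 22. A model over OPCs and COPs of all 12 mice tested the difference between the effects in 6659 genes and called 125 (1.88%). Cacng4 was called, with an effect in COPs 1.08 ± 0.23 lower on the log2 scale than in OPCs (edgeR FDR = 0.00073), as it was with cluster 5 alone as OPCs (-1.14, edgeR FDR = 0.00021). The effect on C1ql1 differed by 0.10 ± 0.36 (edgeR FDR = 0.94), so that no difference between stages was shown for it, and the remaining 4 members had edgeR FDRs of 0.80 to 0.94.

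The number of cells per stage also differed between the groups. COPs made up 3.64 to 11.6% of the cells of an FGF1 mouse and 0.290 to 0.917% of those of a vehicle mouse, and OPCs 2.08 to 10.2% and 6.68 to 11.9%. Of OPCs and COPs together, COPs were 52.9 ± 10.9% in FGF1 and 6.75 ± 2.36% in vehicle mice (exact permutation test, two-sided p = 0.0022, the smallest p that 6 against 6 allows, adjusted over 6 shares 0.0065), while the OPC share of all cells was 6.22 ± 2.64 against 8.64 ± 2.13% (exact p = 0.11, adjusted 0.21). Cells were assigned by clustering the same counts, so a cell's stage and its level of these genes are not independent.

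When OPCs and COPs were summed as a single lineage, all 6 members fell. Each member was lower in COPs than in OPCs, and COPs were 52.9% of these cells in FGF1 and 6.75% in vehicle mice. The sum thus moves with the mix of cells, and its tests cannot show a change within a stage. Pdgfra was 314 to 582 CPM in FGF1 mice and 911 to 1122 CPM in vehicle mice, which did not overlap, and fell by 1.06 on the log2 scale (edgeR FDR = 7.4e-09). C1ql1 was 64.9 to 134 against 241 to 355 CPM and fell by 1.51 (edgeR FDR = 2.9e-10). Cspg4 was 76.3 to 154 against 274 to 372 CPM and fell by 1.42 (edgeR FDR = 9.9e-11). Cacng4 was 180 to 346 against 546 to 670 CPM and fell by 1.15 (edgeR FDR = 1.8e-09). Lhfpl3 was 274 to 439 against 470 to 646 CPM and fell by 0.55 (edgeR FDR = 0.00047). Matn4 was 31.9 to 131 against 81.3 to 416 CPM, with overlap, and fell to 0.354 of vehicle (edgeR FDR = 0.025). Each was lower after FGF1 in 6 of 6 batches. In this sum 31.9% of 8691 genes were called, 16.8% of all tested in the lower direction, and 8.7% were lower with groups that did not overlap, against 5 of the 6 members. In OPCs alone Pdgfra and Lhfpl3 were not lower.

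Summed over all whole cells of a mouse, from which the authors had removed doublets and neurons, 2 members were called. Here fewer cells of a type and less RNA per cell cannot be told apart. Cspg4 was 16.2 to 36.5 CPM (median 24.5) against 29.0 to 51.7 CPM (median 41.9) and fell by 0.78 on the log2 scale (edgeR FDR = 0.027). C1ql1 was 6.63 to 25.6 CPM (median 16.7) against 22.1 to 43.6 CPM (median 33.2) and fell by 0.97 (edgeR FDR = 0.040). Both overlapped between the groups and both were lower after FGF1 in 6 of 6 batches, and the background here was 9.58% of 13723 genes called and 5.01% called lower. Pdgfra (81.9 ± 30.8 against 108 ± 19.1 CPM, edgeR FDR = 0.31), Cacng4 (60.7 ± 16.8 against 81.2 ± 10.4 CPM, edgeR FDR = 0.11), Lhfpl3 (62.3 ± 26.2 against 60.7 ± 11.4 CPM, edgeR FDR = 0.96) and Matn4 (12.7 ± 9.46 against 24.6 ± 18.97 CPM, edgeR FDR = 0.28) were not called. Leaving out 1 mouse gave 0 to 3 called members, with none called without FGF1 mouse 7 or 21 or vehicle mouse 22 or 25.

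**Figure D2:**
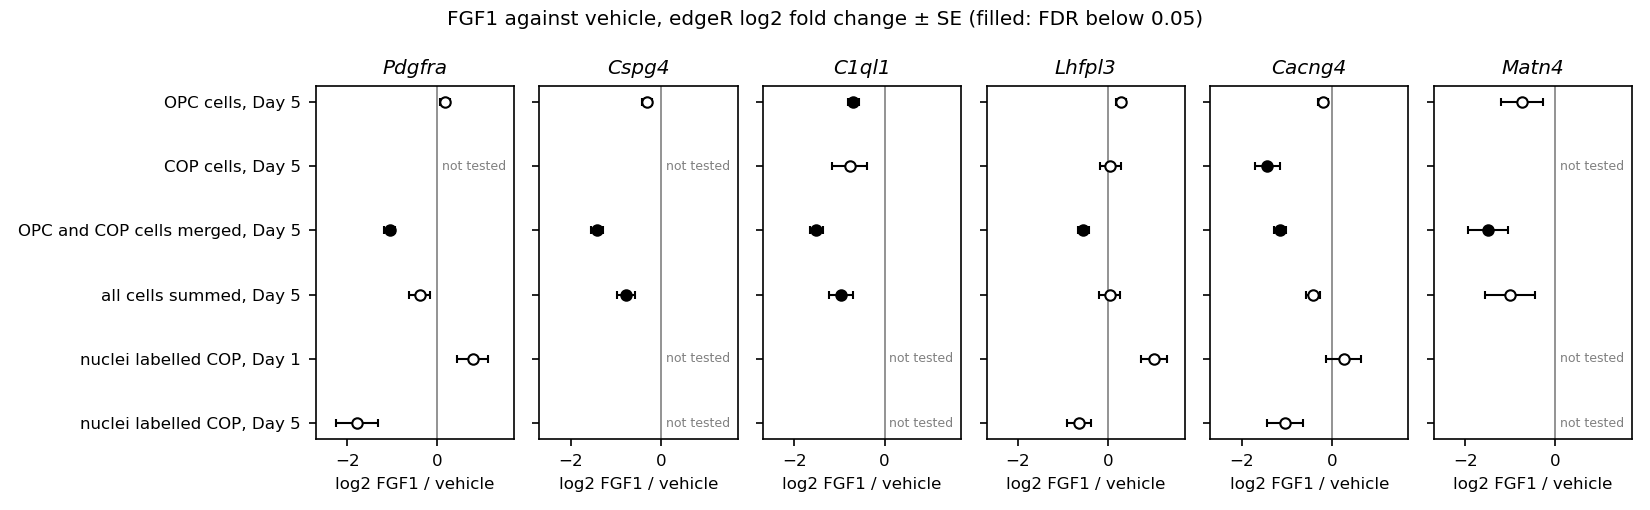
Log2 difference between FGF1 and vehicle (points) with its SE (bars) for each gene, in OPCs, in COPs, in both summed, in all whole cells summed, and in nuclei labelled COP on Day 1 and Day 5. Filled points passed an edgeR FDR below 0.05: C1ql1 in OPCs, Cacng4 in COPs, all 6 genes in the summed lineage, and Cspg4 and C1ql1 in all cells. Both sums move with the mix of cells, so their calls cannot show a change within a stage.

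Outside the lineage no change of a member was shown. In 31 comparisons over 21 other types of cells or nuclei, some of them on both days, 46 pairs of member and comparison could be tested. Of these 0 were called by edgeR (1.55% of all genes in the same comparisons were) or by DESeq2, and 3 had an unadjusted p under 0.05, against 10.7% of all genes. Whole-cell tanycytes held 2 of these among 3 members tested (lowest edgeR FDR = 0.12). Nuclei labelled unmap on Day 5 held 1 among 3 (lowest edgeR FDR = 0.44). Pdgfra in VLMC was 196 to 512 CPM in 5 FGF1 mice and 246 to 377 CPM in 4 vehicle mice, with a log2 difference of 0.10 ± 0.31, whose interval runs from a ratio of 0.708 to 1.63. Cspg4 in endothelial cells was 27.4 to 85.3 against 42.7 to 66.0 CPM, with a log2 difference of -0.01 ± 0.21. Pericyte Cspg4 was 36.3 to 260 CPM in FGF1 mice and 108 to 317 CPM in vehicle mice, from 41 and 39 UMIs, and was too sparse to test.

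In the nuclei the lineage is labelled COP by the authors, and the paper lists OPCs and COPs together for its Day 1 nuclei. Pdgfra was highest in these nuclei of all 37 labels, at 110 CPM, and the 10 OPC markers reached 1809 to 4409 CPM per mouse. In whole cells this marker list did not separate the stages, with 4108 to 5381 CPM in OPCs and 3968 to 5393 CPM in COPs. There were 662 nuclei labelled COP, 17 to 202 per mouse. They carried 17930 to 23373 CPM of the 7 neuronal markers, more than of OPC markers in every mouse. Within a day, with all mice, Pdgfra, Lhfpl3 and Cacng4 passed the filter on low counts and the others did not: Cspg4 gave 75 UMIs in all, Matn4 57 and C1ql1 25. The level of Lhfpl3 was 1597 CPM in nuclei labelled COP, and the median over the 37 labels was 622 CPM. These labels include neuron types, which the authors had removed from whole cells, such as Glu4 (1239 CPM) and GABA14 (933 CPM). Nuclei labelled Astro, Epend and Endo held 287, 156 and 107 CPM. How far Lhfpl3 marks the lineage can thus not be compared with the whole cells. Of the gene's 529539 bases 0.607% are exonic, and introns were counted in nuclei.

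On Day 1 Lhfpl3 was 1782, 2668 and 3732 CPM in the FGF1 mice and 1644, 991 and 1421 CPM in the vehicle mice. Pdgfra was 146, 182 and 243 CPM in the FGF1 mice and 145, 71.8 and 106 CPM in the vehicle mice. For both genes every FGF1 mouse lay above every vehicle mouse, as in 5.15% of all genes tested. For Pdgfra this held only narrowly, with the closest mice of the groups at 146 and 145 CPM. The log2 differences were 1.02 ± 0.30 for Lhfpl3 (unadjusted p = 0.0039, edgeR FDR = 0.49) and 0.79 ± 0.34 for Pdgfra (unadjusted p = 0.036, edgeR FDR = 0.83), and neither passed the adjustment over 4485 genes, of which 4 (0.0892%) were called. DESeq2 called no member on Day 1 either. Cacng4 was 48.7, 129 and 108 CPM against 77.2, 76.6 and 87.9 CPM, with groups that overlapped (log2 difference 0.26 ± 0.39, edgeR FDR = 0.95).

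On Day 5 Pdgfra and Lhfpl3 lay in the opposite order, though neither was called on either day. Pdgfra was 96.4 and 24.2 CPM in the FGF1 mice and 183 and 204 CPM in the vehicle mice. Lhfpl3 was 1433 and 952 CPM against 1975 and 1762 CPM, and Cacng4 was 74.1 and 40.8 CPM against 110 and 120 CPM. All 3 genes were lower in both FGF1 mice than in both vehicle mice, which with 2 against 2 mice was so for 19.4% of all genes tested. The log2 differences were -1.78 ± 0.47 for Pdgfra (edgeR FDR = 0.073), -0.65 ± 0.26 for Lhfpl3 (edgeR FDR = 0.35) and -1.03 ± 0.40 for Cacng4 (edgeR FDR = 0.33), while 74 of 5767 genes (1.28%) were called. DESeq2 called no member on Day 5, but gave an adjusted p for only 2 of the 3. With all mice kept, Pdgfra was called without the filter on low counts and in nuclei with at least 2 UMIs of 9 lineage genes. Those 9 genes include the COP markers Gpr17, Bmp4, Bcas1 and Enpp6. The summed COP markers differed between the groups on Day 5 (3040 to 4207 CPM in FGF1 and 702 to 779 CPM in vehicle mice). This choice of nuclei may therefore depend on treatment. Pdgfra was not called in the other settings with all mice. Leaving out a mouse gave log2 differences of -2.94 to -0.96, the latter without FGF1 mouse 45. Such a fit has 1 mouse in a group and so no spread between mice there, and its calls are not counted.

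**Figure D3:**
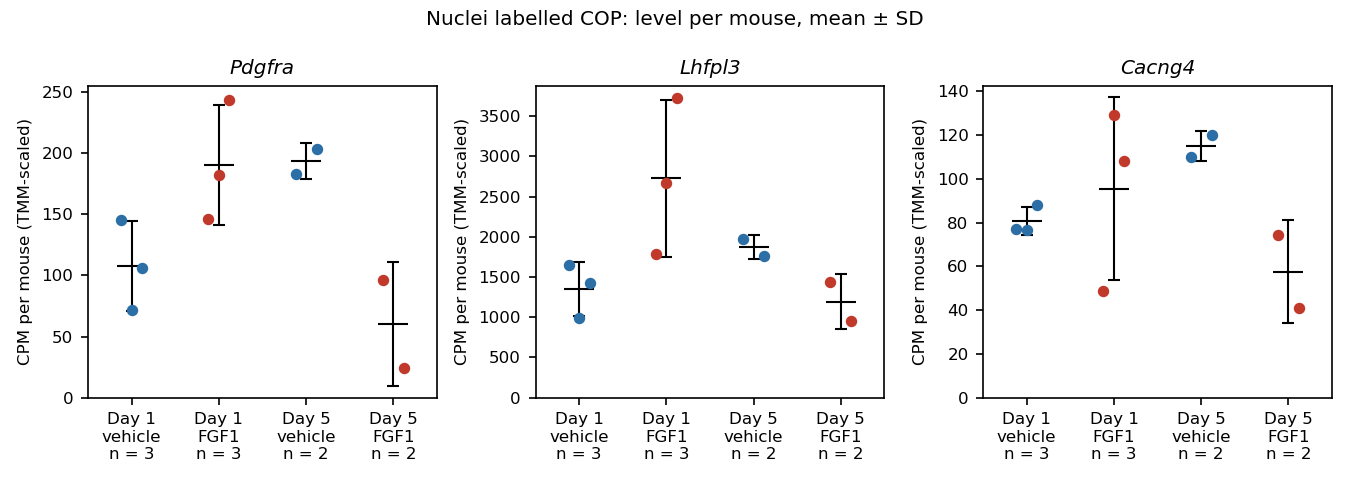
Level of Pdgfra, Lhfpl3 and Cacng4 (CPM) in nuclei labelled COP, with 1 point per mouse and a line at the group mean, on Day 1 (3 FGF1 and 3 vehicle mice) and Day 5 (2 and 2). The plotted CPM carry no TMM scaling, although the axis label names it. Pdgfra and Lhfpl3 lie above vehicle in all FGF1 mice on Day 1, Pdgfra only narrowly, and below vehicle in all FGF1 mice on Day 5. None of these genes passed an edgeR FDR below 0.05 on either day.

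The difference between both days was tested directly. Pdgfra had an FGF1 effect 2.52 ± 0.65 higher on the log2 scale on Day 1 than on Day 5 (unadjusted p = 0.0010) and Lhfpl3 one 1.67 ± 0.45 higher (unadjusted p = 0.0012), but with edgeR FDRs of 0.21 and 0.23 over 5875 genes, of which 6 (0.102%) were called, neither passed. Cspg4 and Matn4 passed the filter in this joint test, and Cspg4, Cacng4 and Matn4 had edgeR FDRs of 0.80, 0.81 and 0.57. The makeup of these nuclei moved too. On Day 5 the COP markers were 3040 to 4207 CPM in FGF1 and 702 to 779 CPM in vehicle mice, and the oligodendrocyte markers 1782 to 2840 against 228 to 702 CPM. The 10 OPC markers, which did not separate OPCs from COPs in whole cells, were also higher after FGF1 without overlap. They were 4312 to 4409 against 2865 to 3143 CPM, where Pdgfra, Lhfpl3 and Cacng4 were lower. On Day 1 the OPC markers (2658 to 3462 against 1809 to 2953 CPM) and the COP markers (818 to 1149 against 814 to 1140 CPM) overlapped. The oligodendrocyte markers on Day 1 were 694 to 789 against 804 to 1235 CPM. The share of these nuclei with at least 2 UMIs of 9 lineage genes was 52.9 to 66.7% in FGF1 and 59.3 to 91.3% in vehicle mice on Day 1. Their part in the results of nuclei was not tested.

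The highest Matn4 levels came from the same mice in several cell types. A group difference in OPCs was not shown, with an interval of the ratio from 0.319 to 1.13. Vehicle mouse 22 held 462 CPM in OPCs and FGF1 mouse 28 held 266 CPM, the highest level of each group. The same mice were also the highest in oligodendrocytes, with 40.2 and 36.0 CPM (89 and 30 UMIs), where the other 10 mice held 1.29 to 17.7 CPM, and in COPs, with 128 and 66.6 CPM. Both mice belong to different batches. Without vehicle mouse 22 the log2 difference of Matn4 in OPCs was -0.34, and without FGF1 mouse 28 it was -1.04, neither of them called.

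**Figure D4:**
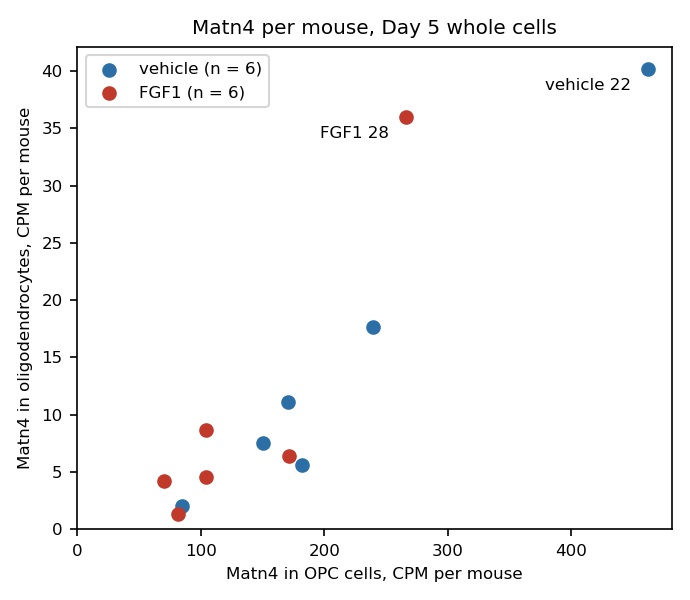
Matn4 level in OPCs (horizontal axis) and in oligodendrocytes (vertical axis) of each of the 12 whole-cell mice, in CPM. Vehicle mouse 22 (462 and 40.2) and FGF1 mouse 28 (266 and 36.0) lie apart from the other mice, which hold 17.7 or less in oligodendrocytes.

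The genes whose pattern over the 20 whole-cell clusters was most like the mean of the 6 members were ranked by Pearson correlation of log2 levels among 11554 genes, as a description. The first 10 outside the members were Sntg1 (r = 0.97), Grm5, Gng3, Mapk7, Gsx1, Acan, Mgat5b, Myt1, Emid1 and Frrs1l (r = 0.92). Of the members Lhfpl3 was closest to the mean (r = 0.98) and Cspg4, which pericytes share, was farthest (r = 0.70). These clusters share libraries and differ in depth. Those tested in OPCs had edgeR FDRs of 0.13 to 0.95, the lowest for Mgat5b (log2 difference -0.59 ± 0.22).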

How the data were processed

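Nuclei and whole cells were profiled with 10x 3′ libraries, 1 mouse each, so p-values measure spread between mice. The authors ran Cell Ranger 1.2 on GRCm38 (mm10, with GRCh38 also in the submitters' processing notes), counted introns for nuclei, clustered in Seurat, and removed doublets (Scrublet) and neurons from whole cells. The authors left out doublet calling for nuclei, and none was run here. The deposited values used were raw UMI counts and, as deposited by the authors, the percent of mitochondrial and ribosomal UMIs per cell. The normalized tables were not used. A library titled FP was placed with vehicle by its treatment text.

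The members and gene lists were chosen with earlier results of these data known. The naming rule for clusters was set after profiles were seen: at least 3 markers in 10% of cells and 2-fold over other cells, a mean marker level of at least 50% of the highest cluster, and other classes below 30% (OPC and COP exempt). The 270 unnamed cells and 660 nuclei marked as filtered stayed out of these types.

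Counts were summed per mouse and type (at least 10 cells) and tested in edgeR 4.0.16 (R 4.3.3, TMM, filterByExpr, robust quasi-likelihood, Benjamini-Hochberg FDR over all genes tested, threshold 0.05), checked first on simulated counts. DESeq2 1.42.0, other scaling, no filter, thinning (1000 UMIs, nuclei 1500), batch blocks, a limit of 20% mitochondrial or ribosomal UMIs and leaving out mice were alternatives. Shares used exact two-sided permutation tests (scipy 1.17.1). Named genes were the members, family genes that passed the filter in OPCs and the 10 genes most like the members. Promoters came from RefSeq (4 of 6 members matched).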

Additional observations from a re-analysis of the deposited data

Results flagged for a closer look

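In 44 groups of 4 to 10 mice, 6 values from 4 mice stood apart from the rest of their group by Dixon's 95% criterion, and chance alone marks about 1 in 20 groups. In COPs, FGF1 mouse 6 had 23.3 CPM of Pdgfra (others 2.93 to 10.6) and 175 CPM of Lhfpl3 (others 118 to 139). For Matn4 in COPs the mice were FGF1 mouse 28 with 66.6 CPM (others 17.6 to 33.5) and vehicle mouse 22 with 128 CPM (others 0 to 43.8), and over all cells FGF1 mouse 28 again with 30.8 CPM (others 3.13 to 12.7). In OPCs, vehicle mouse 25 had 572 CPM of Cacng4, below the other vehicle mice (659 to 705).

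Cacng4 had an FGF1 effect in COPs that differed from that in OPCs by -1.08 on the log2 scale (edgeR FDR = 0.00073). This difference was not tested with thinned cells or with a mouse left out. Outside the named clusters, Pdgfra reached 678 CPM in cluster 18, where a count of 0 would allow up to 14.6 CPM, and Cspg4 reached 152 CPM in cluster 19, where it would allow up to 19.015 CPM. These limits rest on 3 counts and cover counting error only.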

How the results depend on the processing

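Of 497 values under other settings, 434 were rated the same. For log2 differences and shares this means the same direction and side of the threshold. For counts of called members it means an equal or similar count. Shares of cell types were rated on unadjusted p, and a missing p was taken as not passed. C1ql1 in OPCs was called in all 20 settings that kept OPCs and COPs apart (edgeR or DESeq2 FDR 4.4e-05 to 0.0072). The merged OPCs and COPs gave 6 called members instead of 1, as COPs were then counted as OPCs, and leaving out 1 mouse gave 1 to 2. In COPs 0 members were called with thinned cells, where 1827 genes were tested, and 0 to 1 without 1 mouse. In nuclei on Day 5, 1 member (Pdgfra) was called without the filter on low counts and 1 in nuclei with lineage UMIs only. All cells summed gave 0 to 3 without 1 mouse, and the family genes in OPCs 0 to 2. Without 1 mouse the OPC share of all cells differed by -3.21 to -1.59 points, with exact p = 0.017 for -3.21 points (without FGF1 mouse 6). The share of OPCs with C1ql1 differed by -10.6 points without thinning (adjusted exact p = 0.21). The cause of these moves was not tested where no construction is named.

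Signs turned only for small differences. Lhfpl3 in COPs was -0.0168 with DESeq2, -0.0132 with DESeq2's size factors in edgeR, -0.0880 when thinned, and -0.12 to 0.27 without 1 mouse. Lhfpl3 in all cells was -0.0315 with batch as a block and -0.18 to 0.17 without 1 mouse. Cacng4 in nuclei on Day 1 was -0.18 to 0.61 without 1 mouse (-0.18 without FGF1 mouse 2). The difference between stages for C1ql1 was -0.0573 with DESeq2's size factors and -0.0182 with cluster 5 alone.

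Counts of all called genes moved more. In OPCs 179 became 405 without the filter, 89 when thinned and 101 to 360 without 1 mouse. In COPs 52 became 403, 25 and 22 to 99. In nuclei on Day 1 the 4 became 34 without the filter, 10 with DESeq2, 1 in nuclei with lineage UMIs, 0 when thinned or with batch as a block, and 0 to 21 without 1 mouse. On Day 5 the 74 became 34 with DESeq2 and 28 when thinned. All cells summed gave 632 to 1700 against 1315. The difference between stages gave 69 genes (24 higher) with DESeq2's size factors against 125 (92 higher). Where a mouse was left out of 2 on Day 5, the lone mouse was assumed to vary like the other group. Those fits are among the 497 rated values, but their calls are not given.

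Replicate numbers occur in both groups on Day 1 only. Deviations of same-numbered mice correlated with r = -0.16, -0.23 and 0.17 over 4485 genes in nuclei labelled COP. In nuclei labelled unmap the values were -0.12, -0.07 and 0.30 over 13681 genes. With so few mice these values cannot show whether the numbers pair mice. With a replicate block 0 members and 0 genes were called, against 0 and 4. The metadata batch blocks, the settings with cluster 18, cluster 5 alone, merged clusters and the lineage nuclei in the test between days were added after seeing the data, apart from the batch block in OPCs and COPs and cluster 5 alone in OPCs. With all mice, C1ql1, Cspg4 and Matn4 did not pass the filter within a day of nuclei.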

Other observations

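Unthinned microglia, which should lack the 6 genes, showed a UMI of C1ql1 in 0.588% of 1870 cells and of Pdgfra in 2.03%. In OPCs the summed level of the 4 members other than C1ql1 and Cacng4 was 2308 to 2605 CPM in FGF1 mice and 1945 to 2653 CPM in vehicle mice.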
